A study of Mus musculus with 16 samples.

Results

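Mucin genes encode the large glycoproteins of intestinal mucus and of the epithelial surface. The 8 members described here, Muc1, Muc2, Muc3, Muc4, Muc5b, Muc6, Muc13 and Muc20, are the rows of the count table whose Ensembl identifier carries these symbols, and all 8 were found among 21965 genes. RNA from the terminal ileum of 16 male C57BL/6 mice was sequenced, 1 library per mouse, to compare chronic ethanol feeding in wild-type (WT) mice and in fat-1 littermates. The fat-1 mice (Fat1+/- in the sample labels) were heterozygous for a transgene encoding an n3 fatty acid desaturase of C. elegans that is expressed in all tissues. The 4 WT PF and 4 fat-1 PF mice were pair-fed a Lieber-DeCarli liquid diet in which maltose dextrin replaced the calories of ethanol. The 3 WT EtOH and 5 fat-1 EtOH mice received the diet with ethanol raised in steps to 6%, which was kept for the last 3 of 6 weeks. All mice were 8 to 10 weeks old when feeding began. The transgene is no row of the table, so the genotype labels were not checked here.

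Mucin proteins carry long stretches rich in serine, threonine and proline that are densely coated with O-linked glycans. Secreted gel-forming mucins are packed by goblet cells and expand into the mucus layer, whereas transmembrane mucins stay on the apical surface of epithelial cells and form the glycocalyx. Muc2 is the gel-forming mucin of the small and large intestine, Muc5b that of airways and glands, and Muc6 that of gastric and duodenal glands. Muc3 and Muc13 are abundant transmembrane mucins of intestinal enterocytes and goblet cells, Muc4 and Muc1 are transmembrane mucins of many epithelia, and Muc20 is a transmembrane mucin best known from kidney.

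The gel-forming genes lie together on chromosome 7 of GRCm38 (mm10). Muc6 (ENSMUSG00000048191) is at chr7:141633456-141655319 on the minus strand. Muc2 (ENSMUSG00000025515) is at chr7:141690340-141754693 and Muc5b (ENSMUSG00000066108) at chr7:141839070-141873084, both on the plus strand. Muc4 (ENSMUSG00000079620, chr16:32735886-32782391, plus strand) and Muc20 (ENSMUSG00000035638, chr16:32777419-32797435, minus strand) overlap at their 3′ ends and share 627 exon bases, which are 5.33% of the Muc4 exons and 15.57% of the Muc20 exons. Muc13 (ENSMUSG00000022824) is at chr16:33794037-33819934 on the plus strand and has 184 exon bases opposite Gm15657. Muc3 (ENSMUSG00000037390) is at chr5:137134922-137149322 on the minus strand and Muc1 (ENSMUSG00000042784) at chr3:89229057-89233381 on the plus strand. Whether the read strand was used in counting is not given in the sources used here.

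For the 4 members with enough reads for a test, the 250 bases before the RefSeq start site (GRCm38.p6) are shown 5′ to 3′, since the comparisons below rest on these genes. Capitals mark matches, on either strand, to TTTATNG, a motif of CDX factors, or to the GATA factor motif, which is spelled AGATAA.
Muc2, chr7:141690090-141690339, plus strand: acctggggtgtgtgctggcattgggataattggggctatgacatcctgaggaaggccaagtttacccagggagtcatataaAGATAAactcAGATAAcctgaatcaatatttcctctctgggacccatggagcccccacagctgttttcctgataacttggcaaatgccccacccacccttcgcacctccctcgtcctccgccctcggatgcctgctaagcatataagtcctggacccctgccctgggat
Muc4, chr16:32735636-32735885, plus strand: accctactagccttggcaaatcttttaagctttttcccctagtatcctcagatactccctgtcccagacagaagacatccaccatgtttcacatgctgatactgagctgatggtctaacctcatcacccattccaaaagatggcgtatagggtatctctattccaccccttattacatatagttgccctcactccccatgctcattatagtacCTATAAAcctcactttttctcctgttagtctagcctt
Muc3, chr5:137166047-137166296, minus strand: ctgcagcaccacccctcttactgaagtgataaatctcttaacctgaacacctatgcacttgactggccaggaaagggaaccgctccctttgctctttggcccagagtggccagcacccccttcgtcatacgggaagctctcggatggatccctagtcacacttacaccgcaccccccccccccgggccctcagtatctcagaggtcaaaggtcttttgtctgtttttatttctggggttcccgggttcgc
Muc13, chr16:33793787-33794036, plus strand: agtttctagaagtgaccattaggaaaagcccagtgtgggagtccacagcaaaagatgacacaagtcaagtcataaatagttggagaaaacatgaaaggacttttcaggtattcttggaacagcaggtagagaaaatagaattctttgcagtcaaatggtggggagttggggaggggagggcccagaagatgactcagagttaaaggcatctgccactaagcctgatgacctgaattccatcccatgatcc
In the window that also takes in the 50 bases after the start, Muc2 held AGATAA at positions -169 and -159, and Muc4 held it at 7 and 31 and held TTTATNG at -37, where it overlaps a TATAAA. The Muc2 match at -169 shares its first base with a TATAAA. Positions count from 0 at the start site. Muc3 and both RefSeq starts of Muc13 held neither. Of 32851 RefSeq promoter windows of this length, 11.2% held AGATAA and 10.9% held TTTATNG. Searched in the same way, the SP1 motif GGGCGG (in 35.7% of windows) was found in Muc2 and Muc1, the E-box CAGCTG (16.3%) in Muc2, the TATA box TATAAA (13.6%) in Muc2, Muc4 and Muc1, and the HNF4 motif (0.475%) at the second start of Muc13. Among the other members, Muc6 held AGATAA at -194, and Muc1 and Muc20 held neither. The RefSeq start of Muc3 lies 16724 bases upstream of the 5′ end of the GENCODE M21 gene, whose exons span only 1943 bases. A match here is a string of letters, not a bound site.

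Mucin coding sequence can also repeat within the gene. In the longest Muc13 transcript, exon 3 of 13 holds 6 copies, spaced 81 bases apart between chr16:33799030 and 33799509, of the 75-base run in capitals in this coding unit, as long as 1 read.
Muc13, chr16:33799030-33799110, plus strand: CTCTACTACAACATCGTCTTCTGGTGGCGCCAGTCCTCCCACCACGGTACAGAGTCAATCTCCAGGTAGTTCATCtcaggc
Of all 75-base windows in the longest transcript, 12.6% occurred more than once in Muc13, 4.08% in Muc4, 18.5% in Muc5b and 9.37% in Muc6, and none did so in Muc1, Muc2, Muc3 or Muc20. No member shared a 75-base window with another gene on its own strand, so reads from Muc3 and its neighbour in name Muc3a differ. How the aligner treated reads inside the repeats was not tested.

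The libraries held 8422645 to 11438539 counts, so that 3 counts correspond to 0.246 to 0.421 counts per 1000000 counts of the library (CPM, scaled with edgeR's TMM factors). The libraries numbered 1 to 8 came from PF mice and 9 to 16 from EtOH mice, so library order and diet cannot be told apart. In 3 libraries, WT EtOH 2, fat-1 EtOH 3 and fat-1 EtOH 4, the 9 genes of a large intestine list (Car1, Aqp8 and others) summed to 4376 to 12333 CPM, against 9.40 to 97.2 CPM in the 13 others, where 4 to 8 of the 9 were at 0. In the 3, 2 to 4 of the 9 were at 0. Car1 made up most of the sum, at 4039 to 12200 CPM in the 3 and at most 79.1 CPM in the others. Aqp8 measured 95.3 to 315 CPM in the 3 and at most 1.11 CPM in the others. Scnn1g, Hoxa13, Hoxb13 and Hoxd13 were at 1.96 CPM or less in the 3, and Fxyd4 had no read in any library. In fat-1 EtOH 3 and 4 the Paneth cell list, which marks small intestinal crypts, summed to 141 and 132 CPM, against 8168 CPM or more elsewhere. Proximal small intestine genes summed to 1941 to 52984 CPM in PF libraries and to 22.0 to 446 CPM in EtOH libraries. Most genes of this list, such as Lct, Gata4, Fabp1, Onecut2 and Reg1, are among the paper's top differing genes between these same groups. The gap between diets, and the high sums in fat-1 PF mice, were thus partly set by the choice of the list. The ileal bile acid genes that define the labelled tissue summed to 404 to 8044 CPM. Of the pair-fed libraries, fat-1 PF 2 and fat-1 PF 4 stood apart, with 461 and 404 CPM of ileal genes, 52984 and 51625 CPM of proximal genes and 8168 and 10583 CPM of Paneth cell genes. In fat-1 PF 1 and 3 the ileal genes summed to 3686 and 6414 CPM. Results that rest on these libraries are given with all 16 libraries and without the 3. The Muc2 and list calls are also given without fat-1 PF 2 and 4, a setting chosen after seeing the data.

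The ileum transcribed 4 of the 8 mucin genes at levels that could be tested, and these were 1 gel-forming and 3 transmembrane mucins. Per length, as CPM per kilobase of exon (RPKM), Muc13 and Muc3 had the highest levels, with medians over the 16 libraries of 963 and 874. The ranges of the 2 genes overlapped in all 4 groups. Within libraries, Muc13 was the higher of the 2 per length in 7 of 8 PF libraries and Muc3 in 7 of 8 EtOH libraries. This order depends on the exon lengths used. In counts, Muc3 exceeded Muc13 only in fat-1 EtOH 3 and 4 (ratios of 1.09 and 1.34). In WT PF mice Muc13 measured 1099 ± 198 RPKM and Muc3 771 ± 165 RPKM (SD, n = 4). Muc2 followed with a median of 180 RPKM and Muc4 with 2.61 RPKM. Muc2 lay below Muc3 and Muc13 in 14 of 16 libraries. In fat-1 EtOH 3 and fat-1 EtOH 4 its level of 1145 and 1058 RPKM exceeded that of Muc13, at 506 and 553 RPKM. The Muc2 exon length of 7127 bases comes from a fragmented gene model whose longest transcript has 2926 bases, and that of Muc3 from a short model, which bears on every level per length of these genes.

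The other 4 members were at or near the limit of detection. Muc1 had 58 reads in all libraries together, with 0 to 9 per library. Muc20 had 9 reads, at most 2 per library and none in 8 of 16, so that no library exceeded 3 counts. The stomach-type mucin Muc6 had 32 reads, of which 16 were in WT PF 3, 9 in fat-1 EtOH 3 and 4 in fat-1 EtOH 4, and 10 libraries had none. Muc5b had 6 reads, 5 of them in WT PF 3 and 1 in fat-1 EtOH 3. Reads of these 2 gel-forming genes were thus most numerous in the same pair-fed library. In WT PF 3, 10 stomach and gastric gland genes summed to 21.4 CPM, against 0.0850 to 6.73 CPM in the 15 other libraries, and its part in these counts was not tested. Muc5ac, which lies between Muc2 and Muc5b, had 1 read. None of these 4 members passed the filter on low counts. In the 2 alternatives that kept them, DESeq2 and edgeR on every gene of at least 1 count, none was called in any comparison. DESeq2 by default gives no adjusted p to genes with very low mean counts, so its lack of a call may be no test. In the edgeR fit on every gene of at least 1 count, Muc6 had an unadjusted p under 0.05 in the interaction of genotype and diet.

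Muc2 was higher in every EtOH-fed mouse than in every pair-fed mouse. In WT PF mice its level was 907, 1104, 985 and 1021 CPM, and in fat-1 PF mice 1021, 596, 1261 and 1078 CPM. In WT EtOH mice it was 1847, 2022 and 1444 CPM, and in fat-1 EtOH mice 1575, 1700, 8158, 7539 and 1298 CPM. The highest PF library (1261 CPM) thus lay just below the lowest EtOH library (1298 CPM), and fat-1 EtOH 3 and 4 stood far above the other 14. Among the 13811 genes tested, 3.14% were likewise higher in all 8 EtOH than in all 8 PF libraries.

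**Figure D1:**
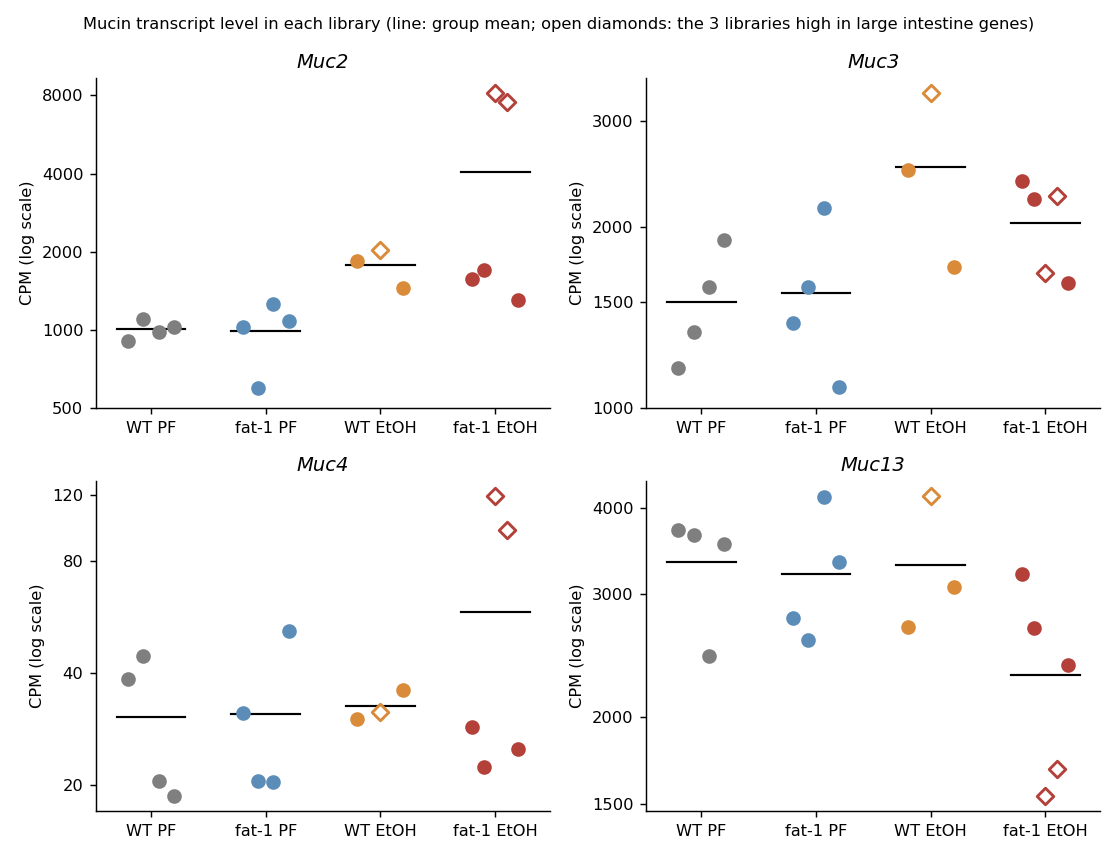
Levels of Muc2, Muc3, Muc4 and Muc13 in CPM on log axes for each of the 16 libraries by group, with a line at the group mean and open diamonds for the 3 libraries high in large intestine genes. Muc2 runs from 596 to 1261 CPM in PF and from 1298 to 8158 CPM in EtOH libraries, while the other genes overlap between diets.

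In fat-1 mice, the EtOH diet went with a Muc2 level 4.10 times that of PF mice. The group mean was 4054 ± 3474 CPM (SD, n = 5) against 989 ± 281 CPM (n = 4). The log2 fold change was 2.04 (SE 0.52), and Muc2 was called in edgeR's quasi-likelihood test (adjusted p = 0.00827 over all genes). It was higher in 5 of 5 EtOH mice (exact two-sided permutation p = 0.0159, the smallest that 5 against 4 mice allow). The diet comparison in fat-1 mice called 37.4% of all genes, 18.7% as higher and 18.8% as lower, and left 10.6% of genes higher without overlap of the groups, so a call is common in it. Without the 3 libraries the level was 1.54 times that of PF mice, with a log2 fold change of 0.65 (SE 0.21, edgeR adjusted p = 0.0369), and 13.9% of genes were called higher and 15.8% lower. The size of the Muc2 difference in fat-1 mice thus rested on fat-1 EtOH 3 and 4. The call was lost where fat-1 PF 2 and 4 were left out. Without these 2, which leaves 2 fat-1 PF mice, the log2 fold change was 1.82 (SE 0.71) and not called (edgeR adjusted p = 0.0948), beside 5.99% of all genes called higher and 7.95% lower. Without these 2 and the 3 it was 0.43 (SE 0.18, edgeR adjusted p = 0.122), beside 4.27% higher and 7.56% lower. The direction was the same in both, and neither fit called Muc3, Muc4 or Muc13.

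In WT mice, Muc2 was 1.76 times as high with EtOH as with PF, at 1771 ± 296 CPM (SD, n = 3) against 1004 ± 82 CPM (n = 4). The log2 fold change of 0.82 (SE 0.56) was not called by edgeR (adjusted p = 0.521), in a comparison in which 0.0796% of all genes were called. The groups did not overlap, and 12.3% of genes were likewise higher without overlap (exact permutation p = 0.0571, the smallest that 3 against 4 mice allow). When only these 2 groups were fitted, Muc2 was called by edgeR (log2 fold change 0.83, adjusted p = 0.0171), with 8.33% of genes called. It was also called by limma voom with sample quality weights (0.84, adjusted p = 0.0367), with 20.3% of genes called. The direction was the same in these fits and the call was not. Without WT EtOH 2 and both fat-1 EtOH libraries the log2 fold change was 0.71 (SE 0.24, edgeR adjusted p = 0.138). With fat-1 PF 2 and 4 left out as well, Muc2 was called (0.72, edgeR adjusted p = 0.0421), beside 3.41% of all genes.

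**Figure D2:**
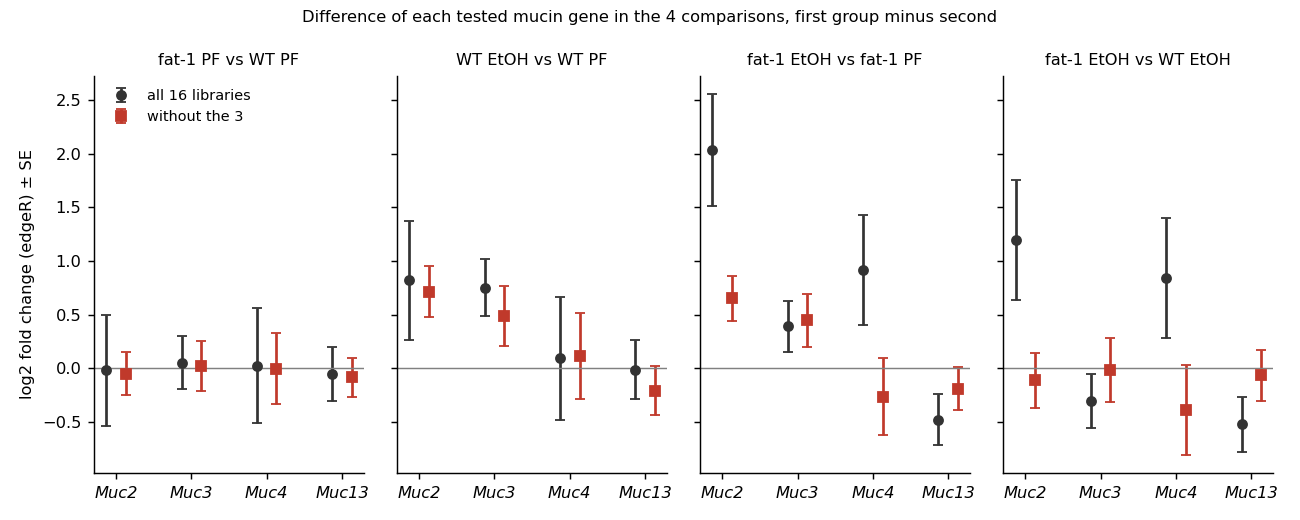
Log2 fold change (edgeR, bars are SE) of Muc2, Muc3, Muc4 and Muc13 in the 4 comparisons, with all 16 libraries (circles) and without the 3 (squares). In fat-1 mice Muc2 goes from 2.04 to 0.65 without the 3 and stays above 0, while Muc4 goes from 0.91 to -0.27.

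The Muc2 differences ran beside other shifts in the tissue. The diets differed in the proximal small intestine list without overlap. Most of its genes are top genes of the paper for these same groups, so this gap is no independent result. The smooth muscle list summed to 905 to 1433 CPM in PF and 1858 to 4039 CPM in EtOH libraries. The library with the lowest Muc2 level, fat-1 PF 2, had the highest proximal list sum (52984 CPM), and the 2 with the highest Muc2 had the lowest (22.0 and 26.6 CPM). Among PF libraries the order did not hold, since fat-1 PF 4 had 51625 CPM of the proximal list with 1078 CPM of Muc2, and WT PF 4 had 1941 CPM with 1021 CPM of Muc2. WT EtOH 2, with 4376 CPM of large intestine genes, had 2022 CPM of Muc2. In fat-1 EtOH 3 and 4 the epithelium list summed to 8836 and 8898 CPM, against 9550 CPM or more elsewhere. Their ileal bile acid genes summed to 913 and 1865 CPM. The B-cell follicle list reached 518 CPM in fat-1 EtOH 5, against 105 CPM or less elsewhere. The part of these lists in the Muc2 difference was not tested. In whole tissue, a higher share of goblet cells and more Muc2 RNA per goblet cell cannot be told apart.

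**Figure D3:**
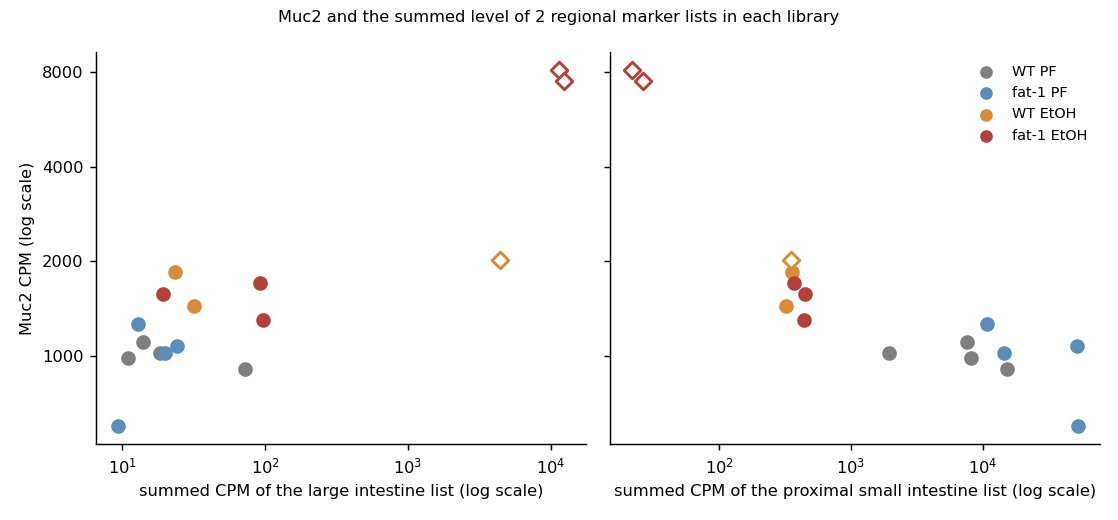
Muc2 level against the summed level of the large intestine list (left) and of the proximal small intestine list (right) in each library, all axes log scaled CPM, colours for groups and open diamonds for the 3 libraries. The 8 EtOH libraries lie at 446 CPM or less of the proximal list and the 8 PF libraries at 1941 CPM or more. Most genes of that list are among the paper's top differing genes between these groups.

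Muc3, a transmembrane mucin of the brush border, was higher on average in EtOH groups, but the groups overlapped. It measured 1165, 1338, 1588 and 1902 CPM in WT PF mice and 2490, 3342 and 1716 CPM in WT EtOH mice. The lowest WT EtOH mouse lay below the highest WT PF mouse. The means were 1498 ± 320 CPM (n = 4) and 2516 ± 813 CPM (n = 3), a log2 difference of 0.75 (SE 0.27). edgeR gave an unadjusted p of 0.0133 (14.1% of all genes were under 0.05) and an adjusted p of 0.241, and the exact permutation test gave p = 0.114. Limma voom with quality weights called it (0.76, adjusted p = 0.0148), along with 20.3% of all genes. In fat-1 mice the levels were 1385, 1592, 2152 and 1083 CPM with PF and 2389, 2231, 1678, 2257 and 1616 CPM with EtOH, which overlap through fat-1 PF 3. The log2 difference was 0.39 (SE 0.24, edgeR adjusted p = 0.207). Without the 3 libraries the differences were 0.49 (SE 0.28) in WT and 0.45 (SE 0.25) in fat-1 mice.

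Muc13, a transmembrane mucin of the enterocyte surface, was lower in fat-1 EtOH 3 and 4 than in any other library. Its level was 3714, 3651, 2443 and 3546 CPM in WT PF mice, and 2771, 2582, 4143 and 3341 CPM in fat-1 PF mice. With EtOH it was 2690, 4152 and 3079 CPM in WT mice and 3209, 2683, 1538, 1679 and 2376 CPM in fat-1 mice. All groups overlapped. The fat-1 diet difference was a log2 fold change of -0.48 (SE 0.24, edgeR adjusted p = 0.122), and -0.19 (SE 0.20) without the 3. In WT mice it was -0.01 (SE 0.27), with an interval (95%, from the t distribution with edgeR's degrees of freedom) from -0.59 to 0.57, and -0.21 (SE 0.23) without the 3.

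Muc4, a large transmembrane mucin, was low in the ileum and high in the same 2 fat-1 EtOH libraries as Muc2. It measured 28.6, 22.4, 119, 96.8 and 25.0 CPM in fat-1 EtOH mice against 31.1, 20.5, 20.4 and 51.8 CPM in fat-1 PF mice. Apart from fat-1 EtOH 3 and 4, the fat-1 EtOH mice lay within the PF range. The log2 difference was 0.91 (SE 0.51, edgeR adjusted p = 0.170), and -0.27 (SE 0.36) without the 3. In WT PF mice the values were 38.5, 44.3, 20.5 and 18.7 CPM and in WT EtOH mice 30.2, 31.5 and 35.9 CPM, a log2 difference of 0.09 (SE 0.57), and 0.12 (SE 0.40) without the 3. Its counts ranged from 146 to 1452 per library.

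Genotype without ethanol went with no detected mucin difference. With PF, edgeR called 0 of the 4 tested members between the genotypes and none had an unadjusted p under 0.05, while DESeq2 and limma voom also called 0 members. Of all genes 0% were called by edgeR (1757 at an unadjusted p under 0.05), against 179 genes by DESeq2 and 31 by limma voom. The log2 fold changes were -0.02 for Muc2 (interval from -1.13 to 1.09), 0.05 for Muc3 (-0.48 to 0.58), 0.02 for Muc4 (-1.12 to 1.17) and -0.06 for Muc13 (-0.59 to 0.48). With EtOH, edgeR called 0 members between the genotypes and 0.00724% of all genes. No member had an unadjusted edgeR p under 0.05, and DESeq2 and limma voom called 0. In DESeq2, Muc2 and Muc13 had an unadjusted p under 0.05. Muc2 was 2.29 times as high in fat-1 EtOH as in WT EtOH mice (log2 fold change 1.19, SE 0.56, edgeR adjusted p = 0.757), and 0.926 times as high without the 3. The groups overlapped for Muc2 (exact permutation p = 0.607). Muc3 differed by -0.31 on the log2 scale (interval from -0.85 to 0.24), Muc4 by 0.84 (-0.35 to 2.04) and Muc13 by -0.53 (-1.07 to 0.02). Without the 3 these 3 genes were at -0.02, -0.39 and -0.07.

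The interaction of genotype and diet tests whether the EtOH difference itself differed between genotypes. edgeR called 0 members and 0% of all genes, no member had an unadjusted p under 0.05, and DESeq2 and limma voom called 0. Of all genes, 0 were called by DESeq2 and by limma voom. The interaction of Muc2 was 1.22 on the log2 scale (SE 0.76, adjusted p = 0.619), and -0.06 (SE 0.32) without the 3. A call of Muc2 in fat-1 mice and none in WT mice in the same fit is thus not a shown difference between them.

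Muc2 took a larger share of the mucin counts in every EtOH library than in any PF library, and its ratio to Muc3 did not separate the diets. Counts of the 8 genes made up 0.406% to 0.656% of PF libraries and 0.600% to 1.44% of EtOH libraries, which overlap. Muc2 took 12.4% to 19.6% of these counts with PF and 21.2% to 71.0% with EtOH, without overlap. In fat-1 EtOH 3 and 4 it took 71.0% and 65.1%, and in the 6 other EtOH libraries 21.2% to 26.2%. The ratio of Muc2 to Muc13 counts, which does not depend on library scaling, was 0.231 to 0.403 in PF libraries, 0.469 to 0.687 in 6 EtOH libraries, and 5.30 and 4.49 in fat-1 EtOH 3 and 4. Its mean log2 difference between diets was 0.83 in WT mice (exact permutation p = 0.0571, the smallest possible) and 2.13 in fat-1 mice (p = 0.0159, the smallest possible), or 0.87 in fat-1 mice without the 3 (exact p = 0.0571, again the smallest possible). In WT mice it was 0.90 without the 3 (exact p = 0.133, the smallest possible). The ratio of Muc3 to Muc13 was also higher with EtOH, by 0.74 in WT mice (exact p = 0.114, groups overlapped) and by 0.93 in fat-1 mice (p = 0.0159 by exact permutation, no overlap). Without the 3 it was 0.68 in WT mice (exact p = 0.267) and 0.65 in fat-1 mice (exact p = 0.0571, the smallest possible, no overlap). The ratio of Muc2 to Muc3 overlapped between the diets in both genotypes. Its log2 difference was 0.088 in WT mice (exact p = 0.743) and 1.2 in fat-1 mice (exact p = 0.175). Without the 3 it was 0.22 in WT mice (exact p = 0.533) and 0.22 in fat-1 mice (exact p = 0.629), with overlap in both.

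**Figure D4:**
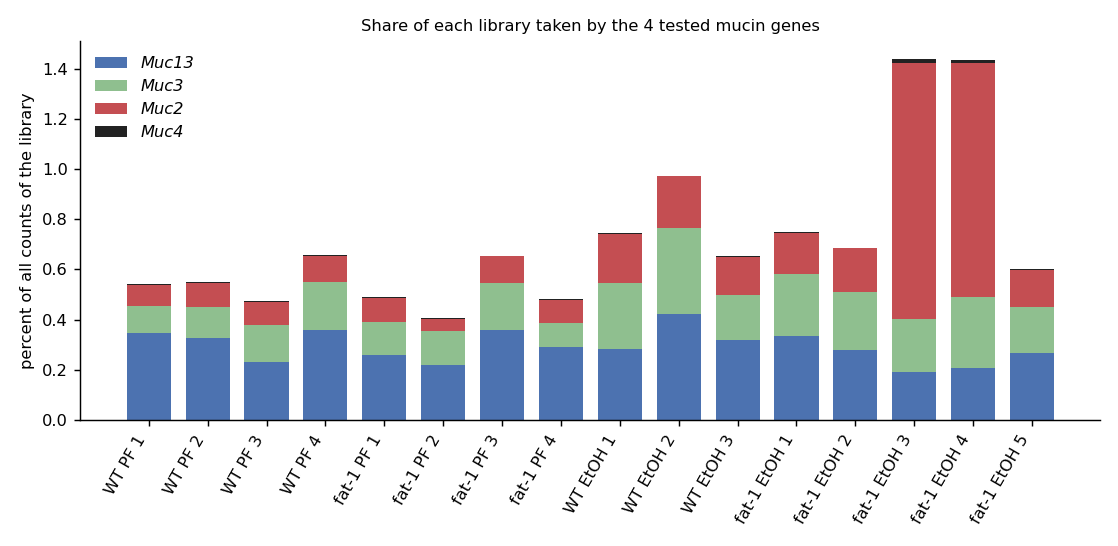
Percent of all counts of each library taken by Muc13, Muc3, Muc2 and Muc4, stacked from 0, in the 16 libraries. The 4 genes make up 1.44% in fat-1 EtOH 3 and 4, where Muc2 is the largest part, and 0.406% to 0.974% in the others.

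Set against other goblet cell products, the result for Muc2 depended on the product and the measure used. On the log2 scale Muc2 lay 3.06 to 3.93 above the mean of the goblet mucus protein list in PF libraries and 3.41 to 5.11 above it in EtOH libraries, so the diets overlapped. The fat-1 EtOH libraries other than 3 and 4, at 3.62 to 3.89, lay within the PF range. That mean weighs each of the 12 genes alike. It includes Retnlb, at most 1.86 CPM in PF and up to 70.2 CPM in EtOH libraries, and Best2, at 0 in 10 libraries. The part of these low genes in the overlap was not tested. The ratio of Muc2 to Tff3 counts, a trefoil peptide that goblet cells secrete with Muc2, was 0.460 to 0.885 in PF and 1.15 to 12.4 in EtOH libraries, without overlap. Tff3 is named after its values were seen. It measured 656 and 709 CPM in fat-1 EtOH 3 and 4, where Muc2 was highest, and 1044 to 1975 CPM in the 14 others. The ratio of Muc2 to Fcgbp, a mucus protein that binds Muc2, was 0.176 to 0.357 with PF and 0.341 to 3.80 with EtOH, which overlap. The summed goblet mucus protein list was 10160 to 14706 CPM in PF and 10309 to 14129 CPM in EtOH libraries, which overlap. Muc2 itself did not overlap, at 596 to 1261 CPM in PF and 1298 to 8158 CPM in EtOH libraries.

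The background for the gene lists is the share of all genes called between fat-1 EtOH and fat-1 PF mice, which was 18.7% higher and 18.8% lower, and 13.9% and 15.8% without the 3. Of the 12 goblet mucus protein genes, 5 rose and 1 fell in fat-1 EtOH against fat-1 PF mice (edgeR), with a median log2 fold change of 0.55 against 0.05 over all genes, and 3 of 11 rose and 1 fell without the 3 libraries. Clca1, a protease that processes the Muc2 gel, rose by 1.16 (SE 0.30, adjusted p = 0.00825), and by 1.40 without the 3. Retnlb, an antibacterial goblet cell protein, rose most, by 6.98 (SE 1.47, adjusted p = 0.00282), and by 4.30 without the 3. It had 2, 0, 5 and 0 counts in the fat-1 PF mice, at or near the limit of detection, so the size of its rise is poorly determined. Zg16, a lectin that binds bacteria, fell by 0.58 on the log2 scale (SE 0.16, adjusted p = 0.0123), and by 0.52 without the 3. Fcgbp had a log2 difference of -0.21 (SE 0.19, adjusted p = 0.386), and 0.07 without the 3. In WT mice none of the 12 was called, beside 0.0796% of all genes.

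Among the 14 tested genes of goblet transcription and protein folding, 6 rose and 2 fell in fat-1 mice, and 2 rose and 1 fell without the 3, with medians of 0.71 and 0.22. Over all genes 18.7% rose and 18.8% fell, and without the 3 these shares were 13.9% and 15.8%. Spdef and Atoh1, transcription factors of the goblet and secretory lineages, rose by 1.76 (SE 0.54) and 1.37 (SE 0.38), and were at 0.25 and 0.46 without the 3 and no longer called (edgeR adjusted p = 0.221 and 0.0644). Creb3l1, a factor of secretory cells, rose most (1.90, SE 0.48), and by 0.68 without the 3. P4hb, the protein disulfide isomerase, fell by 1.80 (SE 0.25, adjusted p = 0.000316), and by 1.52 without the 3. Xbp1, a factor of the unfolded protein response, fell by 0.42 (SE 0.13, adjusted p = 0.0255) and was not called without the 3 (-0.31, adjusted p = 0.117). Klf4, a goblet cell differentiation factor, differed by -0.17 (SE 0.18), and by -0.26 without the 3.

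Of the 5 lists, that of O-glycan enzymes held the most called genes and was the longest. It also takes in enzymes best known for other substrates, such as B4galnt1, a synthase of gangliosides, which are glycolipids, and St6gal1, a sialyltransferase of N-glycans. Of 34 tested, 15 rose and 5 fell in fat-1 mice (median log2 fold change 0.75), and 11 rose and 4 fell without the 3 (median 0.24 against 0.07 over all genes). The background was 18.7% higher and 18.8% lower, and 13.9% and 15.8% without the 3. Gcnt1, which starts core 2 branches, rose by 2.34 (SE 0.39) and by 2.22 without the 3. B3gnt6, which makes the core 3 structure typical of colon mucin, rose by 2.39 (SE 0.61) and by 1.07 without the 3, while Fut2, a fucosyltransferase, rose by 3.70 (SE 0.96) and was not called without the 3 (1.92, adjusted p = 0.0826). St6galnac6, a sialyltransferase, rose most (4.73, SE 1.26), at 69.7 to 478 CPM in the 3 libraries against 4.34 to 12.1 CPM in the 13 others, and by 0.79 without the 3. St3gal6, another sialyltransferase, fell by 1.50 (SE 0.29), and by 1.63 without the 3. Of the 3 most abundant genes of the list, B4galnt2 rose by 0.76 (SE 0.19) and the ganglioside synthase gene B4galnt1, counted among the 5 that fell, fell by 1.01 (SE 0.14), and without the 3 by 0.65 and 0.95. St3gal4 differed by -0.92 (SE 0.65, adjusted p = 0.273), and by -0.22 without the 3. Gcnt1, B3gnt6, Fut2, St6gal1, Spdef and Atoh1 are named after their values were seen.

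**Figure D5:**
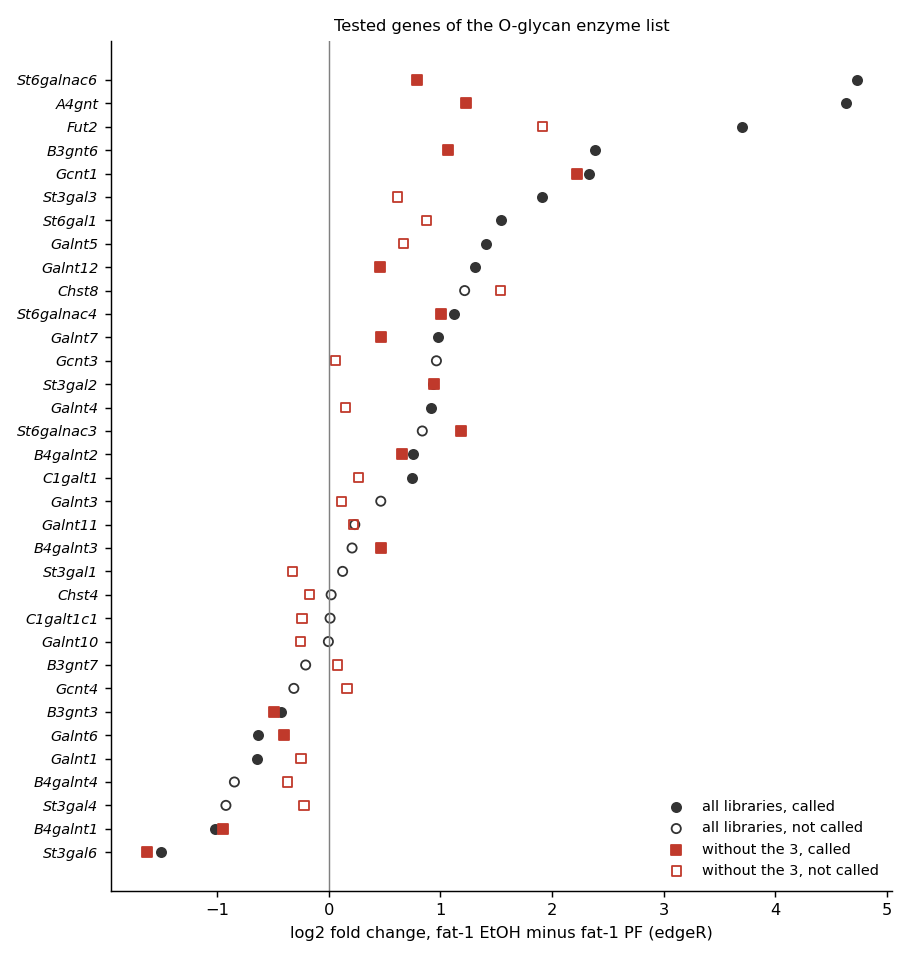
Log2 fold change of the 34 tested genes of the O-glycan enzyme list (B4galnt1 and St6gal1 included) in fat-1 EtOH minus fat-1 PF mice (edgeR), with all libraries (circles) and without the 3 (squares), filled where the adjusted p is 0.05 or less. The range is -1.50 to 4.73 with all libraries, and 15 genes are called higher and 5 lower.

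Of 13 genes of mucus cleavage, shedding and ion supply, 3 rose and 0 fell in fat-1 mice, and 4 rose and 1 fell without the 3, with medians of 0.20 and -0.16. Of all genes 18.7% rose and 18.8% fell, and 13.9% and 15.8% without the 3. Ano1, a calcium-activated chloride channel, rose most (1.43, SE 0.29, edgeR adjusted p = 0.0022), and by 0.86 without the 3. Meprins are proteases of the brush border, of which meprin β releases attached Muc2. Neither gene passed the test, with differences of 1.09 (SE 0.55) for Mep1a and -0.81 (SE 0.52) for Mep1b, and 1.49 and -0.16 without the 3. Lgals4, a galectin, differed by -0.34 (SE 0.15, adjusted p = 0.0849), and by -0.35 without the 3. The anion exchanger gene Slc26a6 had the smallest value (-1.13, SE 0.88, adjusted p = 0.325), and -0.38 without the 3.

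Of 13 other mucin family genes listed, 11 were in the table and 5 could be tested. In fat-1 mice 3 of these rose and 0 fell (median 1.27), and 0 were called without the 3 (median 0.36), beside 18.7% of all genes higher with all libraries and 13.9% without the 3. Dmbt1, a mucin-like scavenger receptor, rose by 1.68 (SE 0.47, edgeR adjusted p = 0.013) and had 0.66 without the 3 (adjusted p = 0.112). Muc3a, whose gene model lies apart from Muc3, rose by 1.27 (SE 0.41, adjusted p = 0.0264) and had 0.36 without the 3 (adjusted p = 0.245). Its counts equalled 2.07% to 4.80% of those of Muc3 in 14 libraries and 11.7% and 10.2% in fat-1 EtOH 3 and 4, where Muc3 measured 1678 and 2257 CPM, within its range elsewhere. Muc16 rose most (2.38, SE 0.75), at no more than 6.82 CPM in any library, and was not called without the 3 (1.53, adjusted p = 0.0814). The sialomucin Cd164 differed by 0.28 (SE 0.11, adjusted p = 0.0602) and the endothelial sialomucin Emcn by -0.03 (SE 0.18), and without the 3 by 0.36 and 0.13. In WT mice none of the genes in these 5 lists was called by edgeR, in a comparison that called 0.0796% of all genes.

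Fewer list genes were called in fat-1 mice without fat-1 PF 2 and 4. Without these 2, 0 of 12 goblet mucus protein genes, 0 of 5 other mucin family genes, 3 of 34 O-glycan enzymes and 1 of 13 cleavage and ion genes rose, and 1 O-glycan enzyme and 1 of 15 goblet transcription and folding genes fell. Over all genes 5.99% rose and 7.95% fell. The median log2 fold changes were 0.29 for goblet mucus proteins, 0.82 for goblet transcription and folding and 0.61 for O-glycan enzymes. They were 0.20 for cleavage and ion genes and 1.04 for other mucin family genes, against 0.06 over all genes. With 2 fat-1 PF mice left, a lost call need not mean a smaller difference. Without these 2 and the 3, 2 of 11 goblet mucus protein genes, 2 O-glycan enzymes and 1 cleavage and ion gene rose, and 3 O-glycan enzymes and 1 folding list gene fell, beside 4.27% and 7.56% of all genes. In the same order of lists, the medians were then -0.08, 0.05, 0.28, 0.01 and 0.22, against 0.04 over all genes.

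The pattern of Muc2 over the 16 libraries was most like those of Piwil4, Slc35a1 and S100a6, with a root mean square difference of centred log2 CPM of 0.27, 0.28 and 0.28, against an SD of 1.02 for Muc2 itself. Slc35a1 encodes the Golgi carrier of CMP-sialic acid. It measured 17.7 to 28.1 CPM in PF libraries, 29.2 to 35.2 CPM in 5 EtOH libraries, 43.5 CPM in WT EtOH 2, and 184 and 150 CPM in fat-1 EtOH 3 and 4. Muc4 was most like Cacna1h, Cep131 and Trim46 (0.35, 0.37 and 0.37, against an SD of 0.78). These likenesses are descriptions, and rest mainly on fat-1 EtOH 3 and 4. Muc3 and Muc13 varied too little (SD 0.43 and 0.41) for the rule to name any.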

How the data were processed

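Stranded poly(A) libraries from the ileum, 1 for each of 16 mice, were read from both ends. The authors deposited raw counts for each Ensembl gene. They had aligned the reads to mm10 (tophat2) and counted them with htseq, and the counts are not normalized. The htseq settings are not given in the sources used here. Each p-value measures the spread between these mice. Gene symbols, positions and exon unions came from GENCODE M21, promoters from RefSeq (7 of 8 members matched).

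Counts were filtered with filterByExpr (13811 genes left), TMM-scaled and fitted with edgeR 4.0.16 in R 4.3.3 by the robust quasi-likelihood test, with 1 mean per group over all 16 libraries and Benjamini-Hochberg adjustment over all genes. A gene with an adjusted p of 0.05 or less was called, and is said to rise or fall. CPM use TMM-adjusted totals, and RPKM divide CPM by exon length. Single genes were also compared by exact two-sided permutation of log2(CPM + 0.5). Standard errors are the log2 fold change over the root of the F statistic. Limits set by 3 counts cover counting error only.

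The members and lists were chosen with earlier results of these data known. Named genes are all members, and of each list the 3 with the highest mean CPM and those with the largest and smallest log2 fold change in fat-1 EtOH against fat-1 PF mice, and for members whose log2 CPM (prior count 2) had an SD above 0.5 the 3 most like genes. Alternatives were DESeq2 1.42.0, limma 3.58.1 (voom with sample quality weights), other scalings, filters and pseudocounts, only the groups compared, a replicate block, leaving out each library, and leaving out the 3 libraries named and, chosen after seeing the data, fat-1 PF 2 and 4.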

Additional observations from a re-analysis of the deposited data

Results flagged for a closer look

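Of 12 sets of 4 or 5 mice (the 4 tested members in the groups of that size), 1 held a mouse far from the rest. Muc13 was lowest in WT PF 3, at 2443 CPM, against 3546 to 3714 CPM in the other WT PF mice, and its gap to the nearest of them was 0.889 of the range of the group on the log2(CPM + 0.5) scale. Chance puts about 1 in 20 such sets past this limit. The same library held 16 of the 32 Muc6 reads and 5 of the 6 Muc5b reads. Left out of the fit, it moved no call of a member.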

How the results depend on the processing

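Muc2 was the only member called in fat-1 EtOH against fat-1 PF mice, under the 9 other settings planned and in each of the 16 fits without 1 library, with log2 fold changes of 0.65 to 2.20 and 1.63 to 2.28 and adjusted p-values of 0.000167 to 0.0491 and 0.00313 to 0.0296. In WT EtOH against WT PF mice, 2 members (Muc2 and Muc3) were called by limma voom with sample quality weights and 1 (Muc2) when only the 2 groups compared were fitted, against 0 as reported. In settings chosen after seeing the data, fat-1 PF 2 and 4, low in ileal genes, were left out, alone and with the 3. Muc2 then had 1.82 and 0.43 in the fat-1 diet comparison with 0 members called, out of 1965 and 1622 genes called, and in the WT diet comparison 1 member (Muc2) was called without all 5, out of 468 genes. Between PF groups Muc2 turned to 0.18 and 0.17, Muc4 to -0.249 and -0.25, and Muc13 to 0.042 and 0.037. Without all 5, Muc4 turned to -0.019 in the fat-1 diet comparison, -0.395 between EtOH groups and -0.14 in the interaction, and Muc2 to -0.12 between EtOH groups and -0.29 in the interaction. The labels do not say whether equal replicate numbers pair mice. Deviations from group means correlated at -0.0225 on average over 21 same-number pairs and at 0.00703 over 74 others. Such averages over all genes cannot exclude a pairing. With the replicate block, Muc2 had 2.09 among fat-1 and 0.97 among WT mice, no call of a member changed, and Muc4 turned to -0.13 between PF groups. Over all genes, the WT diet comparison gave 11 calls as reported, 258 with DESeq2, 2800 with limma voom, 1104 with only the 2 groups, 26 without the 3 libraries, 18 with the replicate block, 2 with every gene of at least 1 count and 0 with at least 10 counts in every library. The fat-1 diet comparison gave 5170 calls as reported and 3086 with only the 2 groups. Between EtOH groups there was 1 call as reported, 5 with DESeq2, and 0 with the replicate block or only the 2 groups. Upper-quartile normalization moved the median of all genes in the fat-1 diet comparison to 0.20 and its calls to 3906 higher and 1753 lower, and turned Muc3 to -0.016 and Muc4 to -0.032 between PF groups and Muc13 to 0.033 in the WT diet comparison, where at least 10 counts in every library gave Muc13 0.0023. Without the 3 libraries, Muc4 turned to -0.0068 between PF groups, to -0.27 in the fat-1 diet comparison (exact permutation p = 0.857), to -0.39 between EtOH groups (exact permutation p = 0.2) and to -0.38 in the interaction. In the same setting Muc2 turned to -0.11 between EtOH groups (exact permutation p = 0.8) and to -0.061 in the interaction, and Muc13 to 0.020 in the interaction. Limma voom put Muc4 at -4.17e-05 between EtOH groups and at -0.068 in the interaction. In fits without 1 library, values between PF groups ran from -0.17 to 0.15 for Muc2, -0.16 to 0.19 for Muc3, -0.35 to 0.25 for Muc4 and -0.21 to 0.022 for Muc13, and in the WT diet comparison from -0.084 to 0.33 for Muc4 and -0.21 to 0.12 for Muc13. None of the values that changed sign was called. The cause was not tested. The permutation p of Muc2 in fat-1 mice went from 0.0159 to 0.0571 without the 3, the smallest that 3 against 4 mice allow. The 4 members with few reads were at or near the limit that these totals set.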
